A study of Mus musculus with 4 samples.

Results

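The chromatin around 8 genes of the insulin-like growth factor (IGF) axis was examined in immortalized mouse embryonic fibroblasts with and without HAT1, the acetyltransferase that modifies newly made histone H4. The genes were Igf1, Igf1r, Igfbp2, Igfbp3, Igfbp4, Igfbp5, Igfbp6 and Igfbp7. Their members were the accessible regions, called sites, that overlapped the body of one of these genes or lay within 30 kb of its transcription start site (TSS) in the GENCODE annotation of mm10. This gave 65 of the 82325 sites in the table: 26 for Igf1r, 11 for Igfbp7, 6 each for Igfbp3 and Igfbp6, 5 each for Igfbp4 and Igfbp5, 4 for Igf1 and 2 for Igfbp2. No site belonged to more than one of the genes.

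The 4 libraries were made by ATAC-Seq, which uses the Tn5 transposase to cut and tag DNA that is not shielded by nucleosomes, so that reads pile up where chromatin is open. HAT1 WT (HAT1+/+) and HAT1 KO (HAT1-/-) were represented by 2 lines each, all on a C57bl6 background and all carrying SV40 T antigen, introduced by transfection of early-passage fibroblasts from mid-gestation embryos. Every line was thus a transformed derivative, and the labels do not say whether lines of one genotype came from separate litters, so that p-values measure the spread between these lines and no more. Values are normalized counts, that is, the reads of a site divided by a factor for its library and rounded. The lines are called WT replicates 1 and 2 and KO replicates 1 and 2, where the numbers are names only.

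IGF1 is a secreted hormone and growth factor, and IGF1R is the receptor tyrosine kinase through which it drives growth and survival. Most IGF outside cells is held by IGF-binding proteins, which prolong its life and either limit or deliver it to the receptor, until proteases such as PAPP-A release it. Fibroblasts make several of these proteins, and fibroblasts that lack IGF1R are known to resist transformation by SV40 large T antigen.

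Approximate depth, read from the steps that scaling leaves in low values, came to 9420000 (WT replicate 1), 11420000 (WT replicate 2), 7830000 (KO replicate 1) and 5650000 (KO replicate 2) reads within sites, rounded. The steps fitted less well in WT replicates 1 and 2 (correlation 0.70 and 0.82) than in KO replicates 1 and 2 (0.97 and 0.99). The WT depths are thus the less certain. By these estimates, counting error was larger in both KO libraries. The promoter site of the targeted gene, Hat1, had 390 and 384 normalized counts in WT and 438 and 368 in KO, so that it gave no check of the genotype labels. Of 12 fibroblast markers, 11 had a site within 1 kb of a TSS (Lum had none), with a summed signal of 2855 to 3387 normalized counts per library. Vim, an intermediate filament gene, had the highest of these (866 normalized counts on average), and Dcn, a matrix proteoglycan gene, the lowest (20.5). Among markers of other cell types, 5 of 5 endothelial, 3 of 5 epithelial and 2 of 4 blood genes had such a site. For the endothelial genes the summed normalized counts, replicate 1 first, were 433 and 337 in WT and 311 and 379 in KO. They were 196 and 132 in WT and 172 and 112 in KO for the epithelial genes. For the blood genes they were 254 and 226 in WT and 284 and 239 in KO. Such a site was present at 1 of 3 neural genes and 0 of 4 skeletal muscle genes. The blood genes Ptprc and Spi1 and the muscle gene Myod1 had none within 1 kb of a TSS, but had 5, 6 and 1 sites further away. The blood genes Cd68 and Csf1r had such a site, with 179.75 and 71.0 normalized counts on average. An open promoter does not by itself mark a cell type, and the part of other cells in the values below was not tested.

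The sequences that the comparisons turn on are given here, each the 300 bases at the centre of its site (RefSeq sequence of GRCm38, the assembly named mm10). They were chosen because they hold the most accessible site of Igf1, Igf1r and Igfbp3, the Igf1 and Igfbp2 sites at which the genotypes did not overlap, the Igfbp7 site with the lowest p of that gene, and the Igfbp5 site next upstream of its start. Capitals mark matches, on either strand, to short motifs that were searched for at every site: AP-1 (TGANTCA), TEAD (GGAATG), RUNX (TGTGGT), C/EBP (TTGCNNAA), FOX (TGTTTAC), the GC box (GGGCGG), CRE (TGACGTCA) and the E-box (CACGTG). A match is a run of letters and no evidence of binding.
Igf1 intron, 4.78 kb from the TSS, chr10:87862894-87863193, plus strand: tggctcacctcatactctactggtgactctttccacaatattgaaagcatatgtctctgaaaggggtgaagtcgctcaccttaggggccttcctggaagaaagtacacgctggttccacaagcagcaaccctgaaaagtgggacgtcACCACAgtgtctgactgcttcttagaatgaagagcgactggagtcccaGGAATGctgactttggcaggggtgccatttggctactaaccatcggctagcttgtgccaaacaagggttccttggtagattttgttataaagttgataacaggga
Igf1 intron, 22.0 kb from the TSS, chr10:87880115-87880414, plus strand: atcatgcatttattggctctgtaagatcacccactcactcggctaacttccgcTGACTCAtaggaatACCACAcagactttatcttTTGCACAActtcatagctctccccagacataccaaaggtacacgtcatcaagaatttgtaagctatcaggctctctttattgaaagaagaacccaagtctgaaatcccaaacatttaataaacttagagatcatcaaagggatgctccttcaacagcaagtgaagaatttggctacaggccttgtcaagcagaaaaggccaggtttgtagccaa
Igf1 intron, 47.0 kb from the TSS, chr10:87905078-87905377, plus strand: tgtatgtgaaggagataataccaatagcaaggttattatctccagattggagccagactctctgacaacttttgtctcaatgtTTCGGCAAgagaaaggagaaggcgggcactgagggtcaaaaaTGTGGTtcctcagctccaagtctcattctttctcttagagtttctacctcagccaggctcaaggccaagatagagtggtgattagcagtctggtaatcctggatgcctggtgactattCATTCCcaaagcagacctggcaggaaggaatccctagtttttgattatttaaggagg
Igf1r intron, 69.0 kb from the TSS, chr7:68021726-68022025, plus strand: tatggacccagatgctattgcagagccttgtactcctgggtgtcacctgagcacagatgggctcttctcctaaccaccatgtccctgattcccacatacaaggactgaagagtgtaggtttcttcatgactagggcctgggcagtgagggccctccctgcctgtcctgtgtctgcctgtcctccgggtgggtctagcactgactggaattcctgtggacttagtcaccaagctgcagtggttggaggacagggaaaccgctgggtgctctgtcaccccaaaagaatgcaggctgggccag
Igfbp2 upstream, 25.9 kb from the TSS, chr1:72798483-72798782, plus strand: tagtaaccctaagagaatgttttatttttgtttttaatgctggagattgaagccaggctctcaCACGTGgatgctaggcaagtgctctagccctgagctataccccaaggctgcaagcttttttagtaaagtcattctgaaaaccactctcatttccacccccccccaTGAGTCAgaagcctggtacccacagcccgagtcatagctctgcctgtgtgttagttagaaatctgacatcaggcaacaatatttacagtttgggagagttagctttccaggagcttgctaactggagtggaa
Igfbp2 start site, chr1:72824646-72824945, plus strand: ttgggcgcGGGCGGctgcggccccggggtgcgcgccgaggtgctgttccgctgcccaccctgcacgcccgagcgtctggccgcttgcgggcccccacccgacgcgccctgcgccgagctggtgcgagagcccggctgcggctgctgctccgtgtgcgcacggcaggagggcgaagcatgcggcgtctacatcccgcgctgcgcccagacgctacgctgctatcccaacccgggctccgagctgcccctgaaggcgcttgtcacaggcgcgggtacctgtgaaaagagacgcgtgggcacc
Igfbp5 upstream, 3.15 kb from the TSS, chr1:72877883-72878182, plus strand: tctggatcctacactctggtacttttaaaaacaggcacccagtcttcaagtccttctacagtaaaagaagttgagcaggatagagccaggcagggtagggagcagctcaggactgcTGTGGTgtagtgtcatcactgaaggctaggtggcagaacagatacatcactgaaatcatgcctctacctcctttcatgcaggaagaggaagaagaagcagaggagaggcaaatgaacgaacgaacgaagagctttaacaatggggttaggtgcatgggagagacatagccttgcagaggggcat
Igfbp3 upstream, 24.0 kb from the TSS, chr11:7237807-7238106, plus strand: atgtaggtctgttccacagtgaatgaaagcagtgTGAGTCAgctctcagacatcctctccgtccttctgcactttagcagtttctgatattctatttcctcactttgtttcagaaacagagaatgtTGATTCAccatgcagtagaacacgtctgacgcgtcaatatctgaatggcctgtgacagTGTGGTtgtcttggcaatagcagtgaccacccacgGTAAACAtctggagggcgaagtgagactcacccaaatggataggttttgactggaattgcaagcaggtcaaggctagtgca
Igfbp7 intron, 23.7 kb from the TSS, chr5:77384173-77384472, plus strand: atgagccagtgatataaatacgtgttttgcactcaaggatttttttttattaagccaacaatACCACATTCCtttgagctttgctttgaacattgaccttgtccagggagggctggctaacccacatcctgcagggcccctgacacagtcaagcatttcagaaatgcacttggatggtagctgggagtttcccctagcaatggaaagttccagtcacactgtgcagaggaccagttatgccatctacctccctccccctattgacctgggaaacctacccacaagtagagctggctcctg

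None of the 65 sites was called differentially accessible, where a call needs an unadjusted limma p under 0.01 together with a log2 fold change of 1 or more in size. Over all 82325 sites, 0.302% were called lower in KO and 0.0705% higher, and the count of 0 among 65 sites is near this background. An unadjusted p under 0.05 was reached by 2 of the 65 sites (3.08%), beside 3.13% of all sites. The lowest adjusted p among the 65 sites was 1.00 (Benjamini-Hochberg over all sites). Of all 82325 sites, 0 had an adjusted p under 0.05. Log2 fold changes of KO against WT, on the scale log2(value + 1), ran from -1.29 to 1.27 with a median of 0.07, and the median over all sites was 0.0062. They were below 0 at 29 sites (44.6%) and above 0 at 36, against 49.3% below 0 among all sites.

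Lines of one genotype differed from each other at these sites. At the 65 sites the median absolute log2 difference was 0.25 between the WT lines, 0.44 between the KO lines and 0.25 between the genotype means. Over all sites these medians were 0.34, 0.43 and 0.25. A difference between means varies less than a difference between single lines, so the genotype value cannot be set directly against the others. At 28 of the 65 sites (43.1%) the KO lines lay on opposite sides of the WT mean, as they did at 44.6% of all sites. Both KO values lay under both WT values at 7 sites, or 10.8%, where 14.3% of all sites did so. Both lay over both WT values at 8 sites, or 12.3%, where 14.6% of all sites did so.

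**Figure D1:**
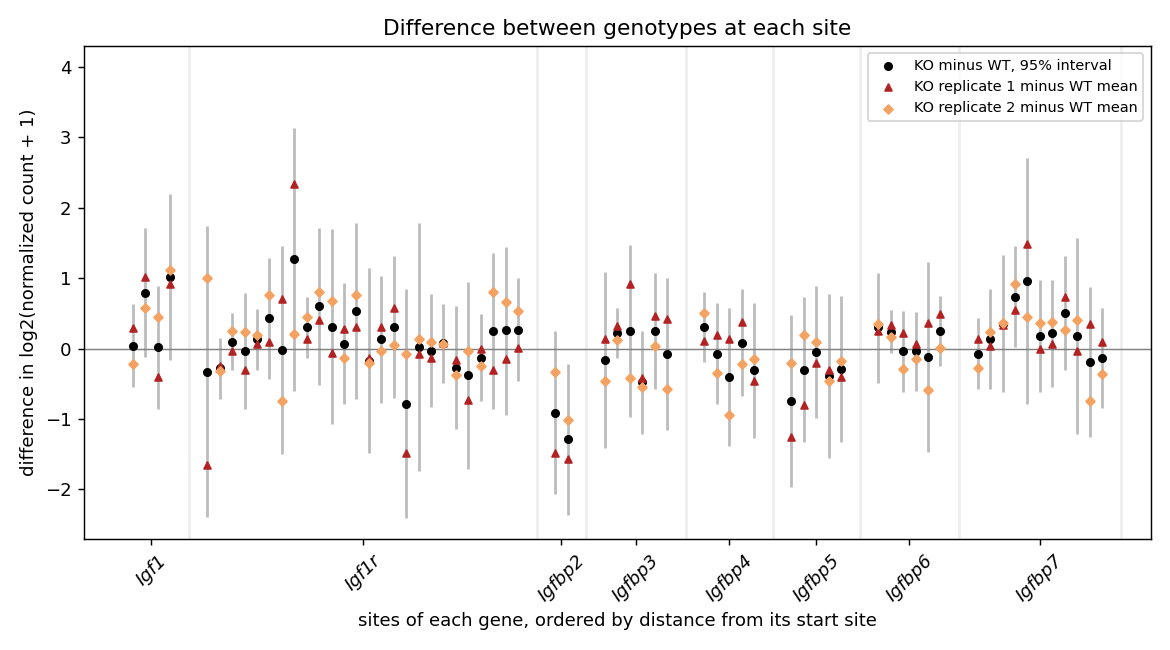
Each position is 1 of the 65 sites, grouped by gene and ordered by distance from the start site. Black points give the difference in log2(normalized count + 1) between KO and WT with its 95% interval from limma (grey lines), and triangles and diamonds give KO replicates 1 and 2 against the WT mean. Intervals include 0 at all sites except the Igfbp2 start site (-2.36 to -0.22) and the Igfbp7 site 23.7 kb into the gene (0.02 to 1.46).

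Igf1, the ligand, lies on chromosome 10 (87858265 to 87937042, plus strand), and its 4 sites all lay within the gene. The promoter site lay over alternative starts of the gene, 2.46 kb from the outermost TSS (chr10:87860285-87861162, which holds the RefSeq start), and had 210 and 182 normalized counts in the WT lines and 240 and 168 in the KO lines. The genotypes overlapped there (196 ± 19.8 in WT and 204 ± 50.9 in KO, SD, n = 2 each), with a log2 fold change of 0.04 (95% interval -0.55 to 0.63). This site and the next also lie in the antisense transcript Igf1os, and ATAC-Seq does not tell strands apart.

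The most accessible Igf1 site, 22.0 kb into the gene (chr10:87879834-87880695), had 205 and 347 normalized counts in the WT lines and 200 and 364 in the KO lines. Each genotype held a low and a high line of almost equal values, and the log2 fold change was 0.02 (SE 0.36), so the lines differed far more than the genotypes did. The sequence of this intronic site printed above holds AP-1, RUNX and C/EBP matches, separated by unmatched bases.

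At the 2 remaining sites of Igf1, both in introns, the normalized counts of the genotypes did not overlap. At 4.78 kb (chr10:87862848-87863238) the values were 42 and 70 normalized counts in WT and 111 and 81 in KO, a log2 fold change of 0.79 (SE 0.38). At 47.0 kb (chr10:87905080-87905375), a site described after its values were seen, they were 12 and 17 in WT and 28 and 32 in KO, a log2 fold change of 1.02 (SE 0.49). Both KO lines lay above both WT lines at each, and neither difference passed the test. By the estimated depths, the values at 47.0 kb stood for about 14 and 24 reads in WT and 26 and 21 in KO. Exact Poisson 95% intervals, which cover counting error only, overlapped there between every WT and every KO line. At 4.78 kb the interval of WT replicate 2 (up to 85.2 normalized counts) overlapped that of KO replicate 2 (from 61.1). The other pairs of WT and KO lines did not overlap at 4.78 kb. Summed over its 4 sites, Igf1 had 469 and 616 normalized counts in WT and 579 and 645 in KO. The gene-level log2 fold change was 0.18 (95% interval -0.22 to 0.59), and it was -0.01 without WT replicate 1, the line with the lowest sum.

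Igf1r, the receptor gene, spans 281 kb of chromosome 7 (67952827 to 68233668, plus strand) and carried 26 sites, most of them in its long introns. At its promoter (chr7:67951555-67952586) the lines had 299 and 314 normalized counts in WT and 297 and 364 in KO. The means of 306 ± 10.6 in WT and 330 ± 47.4 in KO (SD, n = 2 each) differed by less than the spread of the KO lines, with a log2 fold change of 0.10 (95% interval -0.30 to 0.50). This site covers the RefSeq start of Igf1r, and its mean was at the 93.4th percentile of all sites.

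The highest signal of all 65 sites was inside Igf1r, 69.0 kb from its TSS (chr7:68021439-68022311), with 359 and 477 normalized counts in WT and 457 and 567 in KO. The genotypes overlapped, since KO replicate 1 lay between the WT lines, and the log2 fold change was 0.30 (SE 0.18). None of the 8 motifs was matched in the 300 bases printed for it. A further intronic site at 20.8 kb had 66 and 56 normalized counts in WT and 65 and 104 in KO (log2 fold change 0.43, SE 0.35), the largest difference among the more accessible Igf1r sites.

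Single lines stood apart at weaker Igf1r sites, which were picked out after their values were seen. At 53.9 kb (chr7:68006560-68006931) KO replicate 1 had 69 normalized counts, while the WT lines had 15 and 11 and KO replicate 2 had 15. This gave the highest log2 fold change of the 65 sites, 1.27, with a 95% interval from -0.60 to 3.14. At 133.0 kb the same KO line was low, with 8 normalized counts against 31 and 19 in WT and 23 in KO replicate 2 (log2 fold change -0.78, 95% interval -2.41 to 0.84). Of the 26 Igf1r sites, 10 had a log2 fold change below 0 and 16 above. Both KO lines lay under both WT lines at 1 site and over them at 1.

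Over the whole receptor gene the sums were 2142 and 2443 normalized counts in WT and 2327 and 2660 in KO. The log2 fold change was 0.12 (95% interval -0.18 to 0.42). It was 0.01 with each library centred on the median of the gene sums of chromosome 7. Centring the sites on the median of the chromosome's sites moved the promoter from 0.10 to 0.09 and the site at 69.0 kb from 0.30 to 0.29.

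Igfbp2 and Igfbp5 are neighbours on chromosome 1 that face each other tail to tail, 5.46 kb apart (Igfbp2 72824503 to 72852474, plus strand, and Igfbp5 72857932 to 72874884, minus strand). Both encode proteins that bind IGF1 and IGF2. IGFBP5 also binds extracellular matrix, and IGFBP2 is abundant in embryonic tissue. All 7 sites of the pair had log2 fold changes below 0. KO replicate 1 lay under both WT lines at 6 of the 7, and KO replicate 2 at 4 of the 7. Over all sites these shares were 32.4% and 33.8%. The 7 sites lie in 1 stretch of chromosome 1 (72798386 to 72878174), were measured in the same libraries and are not separate observations.

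The lowest log2 fold change of the 65 sites was at the start of Igfbp2, and it did not pass the call rule. This site (chr1:72824555-72825036) covers coding sequence of exon 1 and begins just downstream of the TSS. It had 61 and 40 normalized counts in WT and 16 and 24 in KO, and both KO lines lay below both WT lines. The means were 50.5 ± 14.8 in WT and 20 ± 5.66 in KO (SD, n = 2 each). The log2 fold change was -1.29 (SE 0.44, 95% interval -2.36 to -0.22), with a limma p of 0.0257 and an adjusted p of 1.00. By the estimated depths, these values stood for about 72 and 56 reads in WT and 15 and 16 in KO. Exact Poisson 95% intervals on the normalized scale, which cover counting error only, were 47.9 to 77.1 and 30.2 to 51.9 in WT and 9.03 to 26.6 and 13.8 to 39.1 in KO. The interval of WT replicate 2 thus overlapped that of KO replicate 2.

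The other Igfbp2 site, 25.9 kb upstream (chr1:72798386-72798879), had 50 and 54 normalized counts in WT and 18 and 41 in KO. Both KO lines were again the lower, KO replicate 1 by more, with a log2 fold change of -0.91 (SE 0.48). Summed, Igfbp2 had 111 and 94 normalized counts in WT and 34 and 65 in KO, a gene-level log2 fold change of -1.10 (SE 0.41, 95% interval -2.08 to -0.12). Its limma p was 0.0333 and its adjusted p over 18267 protein-coding genes was 0.906. Without KO replicate 2 the value was -1.56 and passed the call rule, in a fit in which the lone KO line is assumed to vary as the WT lines do. Without KO replicate 1 it was -0.64. The p was above 0.05 with quantile normalization (log2 fold change -0.82), without KO replicate 1 and without either WT line. At the start site it was above 0.05 without KO replicate 1 (-1.01) and without WT replicate 1 (-0.99) or WT replicate 2 (-1.59).

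The sites differ in sequence. The 300 bases at the Igfbp2 start are 74.0% G or C with 40 CpG dinucleotides and a GC box, while the upstream site is 45.7% G or C with 2 CpG, an E-box match and an AP-1 match. That E-box was the 1 match of its kind among the 65 sites.

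Igfbp5 had no site over its TSS. The nearest were 3.15 kb upstream and 3.7 kb inside the gene, and the means of the 5 sites ran from 21.0 to 55.8 normalized counts, with 1 of them above 52, the median over all sites. The site inside the gene, the most accessible of the 5 (chr1:72870990-72871374), had 61 and 59 normalized counts in WT and 34 and 69 in KO. KO replicate 1 lay below the WT lines and KO replicate 2 above them (log2 fold change -0.30, SE 0.42). The upstream site (chr1:72877890-72878174), described after its values were seen, had 37 and 33 in WT and 14 and 30 in KO (log2 fold change -0.74, SE 0.50). The gene sum was 209 and 179 in WT and 126 and 187 in KO. The gene-level log2 fold change was -0.33 (95% interval -0.97 to 0.31), and -0.05 without KO replicate 1.

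**Figure D2:**
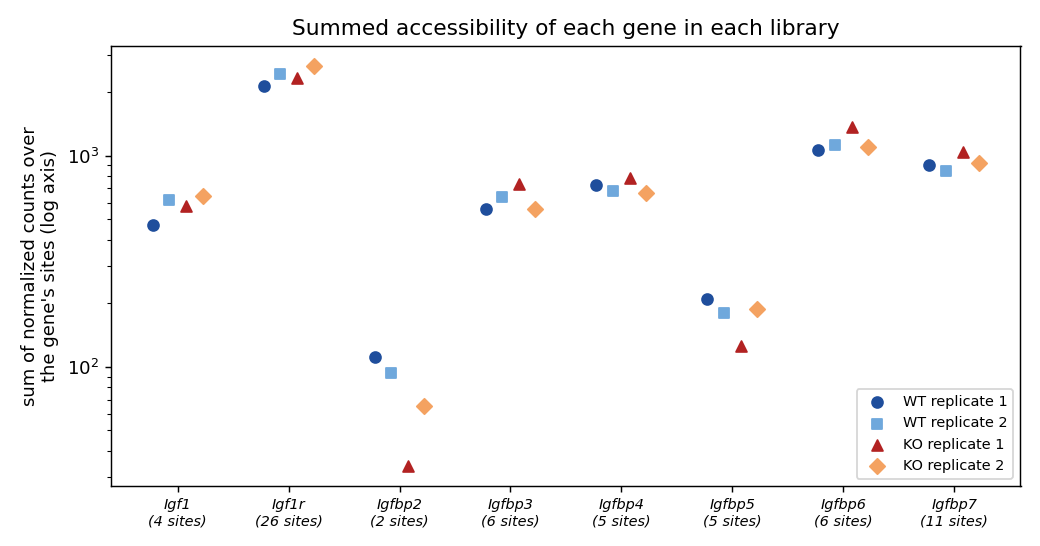
Sum of normalized counts over the sites of each gene (vertical log axis), with 1 marker for each of the 4 libraries. Igfbp2 is the only 1 of the 8 genes with both KO sums (34 and 65) under both WT sums (111 and 94). Igfbp7 is the only 1 with both KO sums over both WT sums.

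Igfbp3 encodes the main carrier of IGFs in blood and lies on chromosome 11 (7206086 to 7213923, minus strand). Its promoter site (chr11:7213530-7214030) had 48 and 55 normalized counts in WT and 71 and 53 in KO, and the genotypes overlapped (log2 fold change 0.25, 95% interval -0.57 to 1.07). Its strongest site lay 24.0 kb upstream (chr11:7237621-7238291), with 318 and 341 normalized counts in WT and 411 and 358 in KO. Both KO lines lay above both WT lines there (330 ± 16.3 in WT and 384 ± 37.5 in KO, SD, n = 2 each), by a log2 fold change of 0.22 (95% interval -0.13 to 0.57). The largest difference among the more accessible Igfbp3 sites went the other way. At 13.0 kb upstream the values were 82 and 104 in WT and 69 and 63 in KO (log2 fold change -0.48, SE 0.30). Igfbp3 thus had sites with opposite order of the genotypes within the same upstream stretch, neither past the test. Of its 6 sites, 5 held an AP-1 match and the promoter site held none. The gene-level log2 fold change was 0.10 (95% interval -0.30 to 0.51).

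Igfbp4 encodes the binding protein that PAPP-A cleaves in response to IGF, and lies further along chromosome 11 (99041244 to 99054392, plus strand). Its promoter site (chr11:99040896-99041899) had 210 and 144 normalized counts in WT and 190 and 90 in KO. The lines of each genotype were far apart (177 ± 46.7 in WT and 140 ± 70.7 in KO, SD, n = 2 each), and the log2 fold change was -0.41 (95% interval -1.38 to 0.57). Without KO replicate 2 it was 0.13. The strongest site under the rule, 17.1 kb upstream, lies at the start of the neighbouring gene Top2a, a topoisomerase of dividing cells, and had 255 and 217 in WT and 254 and 332 in KO (log2 fold change 0.30, SE 0.20). At the gene level the log2 fold change was 0.03 (95% interval -0.29 to 0.35).

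Igfbp6, whose product prefers IGF2 to IGF1, lies on chromosome 15 (102144362 to 102149511, plus strand). No site covered its annotated start, and the nearest ended 698 bases before it and began 983 bases after it. The upstream one, its promoter site (chr15:102143068-102143664), had 195 and 202 normalized counts in WT and 231 and 162 in KO. The genotypes overlapped, with a log2 fold change of -0.04 (95% interval -0.61 to 0.54). The strongest site under the rule, 8.11 kb upstream (chr15:102135802-102136707), lies in Spryd3 and had 392 and 401 in WT and 498 and 442 in KO. Both KO lines were higher there (396 ± 6.36 in WT and 470 ± 39.6 in KO, SD, n = 2 each), by a log2 fold change of 0.24 (95% interval -0.06 to 0.55). A further Spryd3 site at 26.5 kb had 50 and 44 in WT and 56 and 60 in KO (log2 fold change 0.30, SE 0.32). The median of chromosome 15 was 0.20 higher (log2) in KO replicate 1 than in the other libraries. Centring each library on the median of the chromosome's gene sums took the gene-level log2 fold change of Igfbp6 from 0.16 to 0.01. Centring the sites on the median of the chromosome's sites took the site at 8.11 kb from 0.24 to 0.16 and the promoter site from -0.04 to -0.12.

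Igfbp7, on chromosome 5 (77349240 to 77408041, minus strand), encodes a secreted protein related to the others that binds IGFs only weakly. Its promoter was its most accessible site (chr5:77407364-77408314), with 292 and 245 normalized counts in WT and 293 and 221 in KO. The genotypes overlapped fully (log2 fold change -0.07, 95% interval -0.58 to 0.44). The other 10 sites lay in its introns, 20.6 kb or more from the TSS. Of these, the site at 23.7 kb (chr5:77384107-77384537) had 65 and 64 in WT and 95 and 123 in KO, with both KO lines above both WT lines. The means were 64.5 ± 0.707 in WT and 109 ± 19.8 in KO (SD, n = 2 each). The log2 fold change was 0.74 (SE 0.30, 95% interval 0.02 to 1.46), with a limma p of 0.0461 and an adjusted p of 1.00, so the difference missed the call rule. The p was above 0.05 with equal totals (0.67), quantile normalization (0.71) or no intensity trend (0.74), and without KO replicate 2 or either WT line (0.55 to 0.75). Its sequence, printed above, holds overlapping TEAD and RUNX matches. The site also lies within 3 kb of an annotated transcript start that is not one of Igfbp7. The sites at 21.1 and 20.6 kb lie in the antisense gene Gm34648.

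Lines of one genotype lay apart at the Igfbp7 site at 28.2 kb, which was picked out after its values were seen. There the WT lines had 28 and 8 normalized counts and the KO lines 44 and 21 (log2 fold change 0.96, 95% interval -0.79 to 2.71). Such gaps were not the rule. The WT lines differed by over 1 (log2) at 3 of the 65 sites, beside 12.7% of all sites. The KO lines did so at 11, beside 19.8% of all sites. Of the 11 Igfbp7 sites, 8 had a log2 fold change above 0. The gene sum was 902 and 848 in WT and 1043 and 921 in KO, a log2 fold change of 0.16 (95% interval -0.12 to 0.45).

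**Figure D3:**
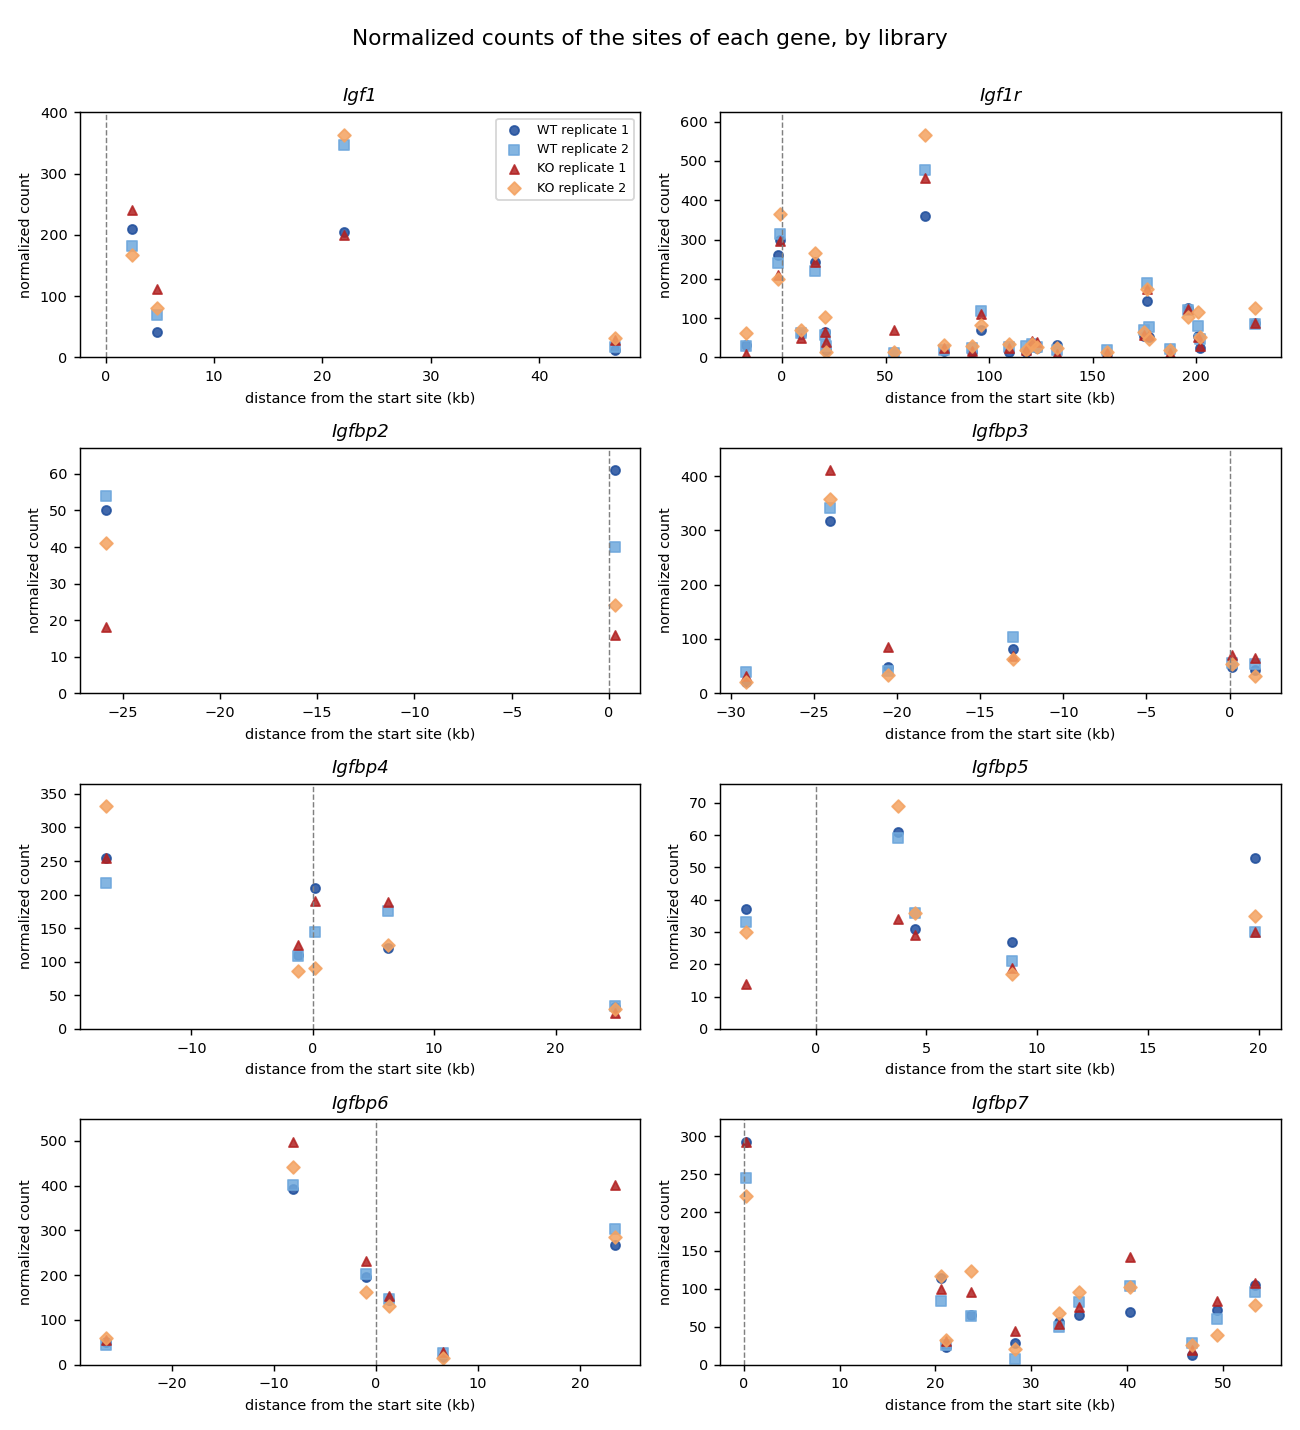
Normalized count of each site (vertical axis, linear, from 0) against the distance of its centre from the TSS in kb (horizontal axis, positive in the direction of transcription), with 1 panel per gene and 1 marker per library. The strongest signals lie away from the start in Igf1 (22.0 kb), Igf1r (69.0 kb) and Igfbp3 (24.0 kb upstream), and at the start in Igfbp7.

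Across the 8 genes, none was called at the gene level, beside 0.257% of 18267 protein-coding genes called lower in KO and 0% called higher. An unadjusted p under 0.05 was found for 1 of the 8 genes, Igfbp2, beside 4.16% of all genes. Both KO sums lay under both WT sums for Igfbp2, as for 11.2% of all genes, and over them for Igfbp7, as for 23.9% of all genes. The median gene-level log2 fold change was 0.11 for the 8 genes and 0.0521 for all genes. In order of their gene-level values, Igfbp2 and Igfbp5 were lowest and Igf1 highest. The 95% interval of each gene but Igfbp2 included 0, that of Igfbp5 (-0.97 to 0.31) included the values of the 6 genes above it, and differences between genes were not tested. With 2 lines against 2, an exact two-sided permutation test cannot give a p under 0.33, so the p-values rest on limma.

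For primary fibroblasts, the study defines domains of lost accessibility by the mean log2 fold change over 25 consecutive sites, with a cutoff of -0.58. The study also joins nearby regions under the cutoff into the same domain, and it reports much the same patterns in immortalized fibroblasts. The same window and cutoff were applied here to the immortalized lines, without that joining. At the site nearest each TSS this mean was below the cutoff for Igfbp5 (-0.63), at -0.42 for Igfbp2, -0.38 for Igfbp7 and -0.22 for Igf1, and between -0.06 and 0.11 for the other 4 genes. The window of Igfbp7 spanned 3.39 Mb and that of Igf1 0.801 Mb, far beyond either gene. Summed over their own sites, these genes had log2 fold changes above 0 (0.16 for Igfbp7 and 0.18 for Igf1). The windows of Igfbp2 and Igfbp5 shared 20 of their 25 sites and are not separate results. Below the cutoff lay 3.42% of all windows. At Igfbp5, 22 of the 25 sites in the window had a log2 fold change below 0, over 0.647 Mb. The KO lines differed there. The window mean against WT was -1.05 in KO replicate 1 and -0.21 in KO replicate 2 at Igfbp5, and -0.79 and -0.05 at Igfbp2. The WT lines differed from each other by 0.06 and -0.06 in the same windows.

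The run of windows below the cutoff began at the Igfbp5 site 3.15 kb upstream of its TSS and reached 358 kb away from the gene (chr1:72877890-73235723), over 9 window centres, of which 1 was a site of Igfbp5. Tnp1, a sperm chromatin protein gene, was the protein-coding gene inside it. The window mean at Igfbp5 was -0.13 when only sites at or above the median signal were kept, -0.44 over 51 sites and -0.47 with a pseudocount of 8, all short of the cutoff. At Igfbp7 the mean was -0.07 over 51 sites and 0.04 with sites at or above the median signal. At Igf1 it was 0.00 without WT replicate 2 and -0.43 without WT replicate 1, and at Igfbp3 0.17 and -0.28.

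**Figure D4:**
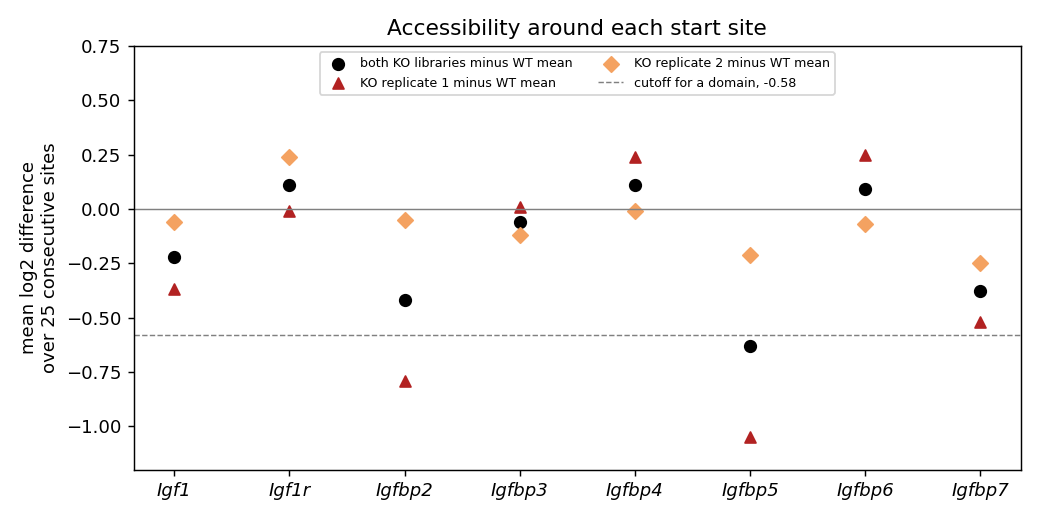
Mean difference in log2(normalized count + 1) over the 25 sites centred at the site nearest each TSS, for both KO libraries together (circles) and for each KO library against the WT mean (triangles and diamonds). The dashed line is the cutoff of -0.58. At Igfbp2 and Igfbp5, KO replicate 1 lies at -0.79 and -1.05 and KO replicate 2 at -0.05 and -0.21.

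The same short motifs were counted at the centre of every site. An AP-1 match was present in 21 of the 65 sites (32.3%) and in 37.7% of all sites. RUNX was matched in 20 (30.8% against 26.6%), TEAD in 13 (20.0% against 24.7%), C/EBP in 11 (16.9% against 12.3%) and the GC box in 12 (18.5% against 17.3%). FOX was matched in 4 sites (6.15% against 3.80%), and CRE and the E-box in 1 each (1.54%, against 0.839% and 4.99% of all sites). AP-1 matches were unevenly placed, in 5 of 6 Igfbp3 sites, 5 of 11 Igfbp7 sites and 6 of 26 Igf1r sites, and in none of the Igfbp4 and Igfbp5 sites. All 4 Igf1 sites held a RUNX match. These counts are a description, and no test was made of them.

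**Figure D5:**
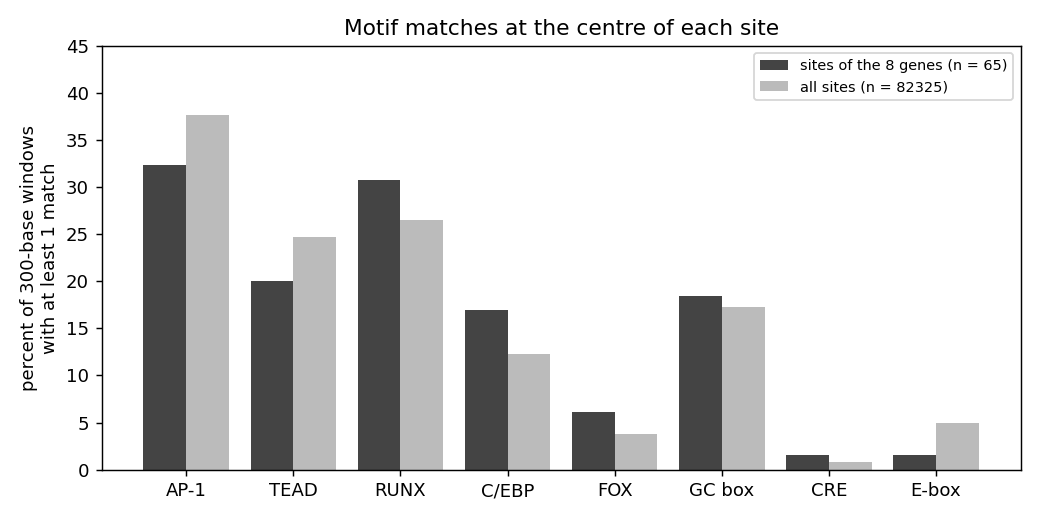
Percent of 300-base windows with at least 1 match to each motif, for the 65 sites of the 8 genes (dark bars) and for all 82325 sites (light bars). AP-1 and RUNX are the most frequent at the 65 sites, at 32.3% and 30.8%.

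Other genes of the axis were read in the same way, from a list of 28 genes that covers ligands, receptors, signalling proteins, proteases and stanniocalcins. Of these, 27 had sites of their own, 232 in all, and the sites of Igfbp1 were all shared with its neighbour Igfbp3. Higher in KO by the call rule was 1 site, or 0.431%, beside 0.0705% of all sites, and 0 were lower, beside 0.302%. A single site is too few to set the list apart from this background. It lies 4.61 kb from the TSS of Ghr, the growth hormone receptor gene whose signal induces Igf1, on chromosome 15 (3587818 to 3588385), and had 120 and 96 normalized counts in WT and 236 and 200 in KO. The log2 fold change was 1.01 (SE 0.24, with a limma p of 0.00547 and an adjusted p of 1.00), and the call was lost without any 1 of the 4 libraries (0.85 to 1.17). It was also lost with a pseudocount of 8 (0.97), quantile normalization (0.95), equal totals (0.94) or chromosome centring (0.93), all under a log2 fold change of 1, and with no intensity trend (limma p of 0.0197). Both KO lines lay under both WT lines at 20 of the 232 sites (8.62%) and over them at 43 (18.5%), where 14.3% and 14.6% of all sites did so. The median log2 fold change was 0.06. At the gene level 2 of the 28 genes had an unadjusted p under 0.05, beside 4.16% of all genes, and 0 were called. They were Pappa2, a protease of binding proteins, with 874 and 1077 normalized counts in WT and 1311 and 1367 in KO (log2 fold change 0.46, SE 0.13, limma p of 0.0113, adjusted p of 0.906), and Ghr (0.45, SE 0.19, limma p of 0.0485, adjusted p of 0.906). Igf2, the other ligand, had 68 and 42 in WT and 39 and 38 in KO over its 2 sites (log2 fold change -0.46, SE 0.42).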

How the data were processed

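ATAC-Seq reads of 4 immortalized MEF lines, 2 HAT1 WT and 2 HAT1 KO, were aligned by the authors to mm10 with BWA 0.7.12, peaks were called with MACS2 2.1.0, and differential occupancy was tested with DESeq2. Read filtering and the Tn5 offset are not given in the sources used here. The deposited table holds 1 score per library at 82325 merged sites, a read count that the authors scaled by library and rounded, so count tests were not used. The authors' 4 columns of comparison results (log2 fold changes, p-values and adjusted p-values) were not used.

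Each site was tested with limma 3.58.1 (intensity trend, R 4.3.3) on log2(value + 1), a scale that understates changes of low sites, over all sites and with no filter. For the gene level, values were summed over the sites of each of 18267 protein-coding genes and tested alike. p-values are two-sided and adjusted by Benjamini-Hochberg over all sites or genes. The call rule (p under 0.01, absolute log2 fold change of at least 1) is the one the study states for primary MEFs with its own tools, applied here to limma values of rounded normalized counts. Depth was estimated from the steps in low values, and whether reads or fragments were counted is not given. Sites and genes were placed with GENCODE vM21, and sequences were read from RefSeq GRCm38. A promoter site is the highest within 1 kb of a TSS of the gene.

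Sites named with values were, for each gene, its promoter site, its most accessible site and the site of largest fold change among those at or above the median signal of all sites (52 normalized counts), plus any called site and, among the 28 other genes of the axis, those with a called site. Others were picked out after their values were seen, as stated. Members, lists and tests were chosen with earlier results of these data known. Alternatives were a pseudocount of 8, sites at or above the median only, equal totals, quantile normalization, centring on chromosome medians (of the sites, or of the gene sums at the gene level), no trend, 10 kb around the TSS, 51-site windows, and each library left out in turn. Tables were handled in pandas 2.3.3 with Python 3.11.15 and scipy 1.17.1.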

Additional observations from a re-analysis of the deposited data

How the results depend on the processing

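No site of the 8 genes was called under any of 12 alternatives, which included an adjusted p under 0.05 with no fold filter. That setting could give no call, since 0 of all 82325 sites had an adjusted p under 0.05. Restricting to 10 kb around the TSS only dropped sites from the same fit and could add none. The median log2 fold change of the 65 sites, 0.07, was 0.01 with equal totals and ranged from -0.06 (without WT replicate 1) to 0.14 (without WT replicate 2) when single libraries were left out. The count of genes called was 0, and 0 to 1 with a library left out, the 1 being Igfbp2 without KO replicate 2. Leaving out a library leaves 1 line in its arm, which is assumed to vary as the other genotype does. The count of loci under the domain cutoff was 1 (Igfbp5), 0 with a pseudocount of 8, with sites at or above the median or with 51 sites per window, and 0 to 2 with a library left out, the lowest without KO replicate 1 and the highest, Igfbp2 and Igfbp5, without KO replicate 2. The windows of these genes share 20 of 25 sites. The 1 called site of the other genes of the axis became 0 under an adjusted p under 0.05, and 0 to 1 with a library left out, an alternative added after seeing the data, where the 1 was a Pappa2 site (without WT replicate 2) and not the Ghr site.

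Directions near 0 turned. At the gene level, Igf1r was -0.02 with quantile normalization, and Igfbp4 was -0.16 within 10 kb of the TSS, -0.04 with chromosome centring, -0.03 with equal totals and with quantile normalization. With a library left out, Igf1 ranged from -0.01 to 0.38, Igfbp3 from -0.09 to 0.30 and Igfbp4 from -0.08 to 0.15. Among sites, the Igf1 start was -0.03 with equal totals and -0.02 with quantile normalization (left out, -0.22 to 0.29), the Igf1 site at 22.0 kb -0.05 and -0.10 (-0.41 to 0.45), and the Igf1r promoter -0.01 with quantile normalization (-0.04 to 0.25). With a library left out, the Igfbp4 promoter ranged from -0.94 to 0.13, the Igfbp5 site at 3.7 kb from -0.80 to 0.20, the Igfbp6 promoter from -0.29 to 0.22 and the Igfbp7 promoter from -0.27 to 0.13. The cause of these changes was not tested.

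No paired analysis was possible because the groups share fewer than 2 numbers in the labels. WT replicate 1 and KO replicate 2 carry the same number in their line names, and the labels do not say what it means. The half-width of the 95% interval of a log2 fold change ran from 0.30 to 2.06 over the 65 sites. It was widest at the Igf1r site 17.4 kb upstream, where the KO lines had 9 and 62 normalized counts. Estimated depth was lower in both KO libraries, and its part in these widths was not tested.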
